A study of Mus musculus with 6 samples.

Results

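Aminoacyl-tRNA synthetases are the enzymes that load each amino acid onto its tRNA. Their transcripts were measured by RNA-sequencing of polyA RNA from Raw264.7 cells, a mouse macrophage line that grew out of a tumor induced by the Abelson murine leukemia virus. All cells carried a lentiviral shRNA, either a negative control (sh-NC, genotype label control, n = 3 libraries) or one directed at *Etv5* (sh-*Etv5*, genotype label *Etv5* knockdown, n = 3 libraries). The labels give the strain C57BL/6 and post natal day 21 for both groups. These entries describe an animal, whereas the methods name Raw264.7 as a purchased cell line, so they may not apply to these cells. The labels also state that the transfection reagent Lipofectamine was present during infection and that expression was read at 24 or 48 h, whereas the methods describe selection with puromycin. They do not state which of the shRNA designs was sequenced, nor whether each library had an infection of its own, so the p-values below measure the spread between these libraries, which may be technical. The members were the gene symbols made of a single amino acid letter, or Ep, followed by ars and an optional 1 or 2, together with *Farsa* and *Farsb*. This rule found 36 of the 24786 symbols, of which 19 encode cytosolic and 17 mitochondrial enzymes.

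Animal cells translate in the cytosol and in mitochondria, and most amino acids have a separate nuclear gene for each site, with the symbol of the mitochondrial enzyme ending in 2. *Gars* and *Kars* serve both sites. Glutamine has no mitochondrial synthetase, since an amidotransferase corrects glutamate loaded onto the glutamine tRNA, and the cytosolic enzyme for glutamate and proline is the fused protein of *Eprs*, a symbol outside the rule. Several cytosolic enzymes are held in the multi-synthetase complex, and many cytosolic synthetase genes are textbook targets of ATF4, the transcription factor of the amino acid response.

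Values are RPKM, in which read counts are divided by gene length and by the mapped reads of the library, and which allow levels of different genes to be compared per length. Read totals of the libraries were unknown, and the RPKM of all genes summed to between 320462 and 340257 per library. In pooled RNA of this kind, a change in the share of cells with a transcript and a change in RNA per cell cannot be told apart. The knockdown target *Etv5* had RPKM values of 9.18, 9.89 and 9.39 under the control and of 5.19, 4.91 and 5.28 under the shRNA against it. All 8 macrophage markers averaged at least 1 RPKM, and their summed level was 4333 to 4443 RPKM in sh-NC and 3406 to 3524 RPKM in sh-*Etv5* libraries. None of 21 markers of other cell types averaged 1 RPKM. Their summed level was 0.365 to 0.61 RPKM in sh-NC and 1.31 to 1.56 RPKM in sh-*Etv5* libraries, with *Col1a2*, *Krt8* and *Lep* at 0 in every library. The part of these marker differences in the results below was not tested.

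Cytosolic synthetase transcripts were mostly higher and mitochondrial ones mostly lower in sh-*Etv5* cells. All 36 members passed the filter of at least 1 RPKM in at least 3 libraries, and log2(RPKM + 1) was compared by limma over all 10738 genes that passed. Among cytosolic members 13 rose, 4 fell and 2 were not called at an adjusted p under 0.05. The 4 falls became 2 without sh-NC replicate 1, sh-NC replicate 3 or sh-*Etv5* replicate 1. Among mitochondrial members 2 rose, 12 fell and 3 were not called. Over all tested genes 33.3% were higher and 41% were lower, 74.3% in total, so a call by itself was common in this comparison. The median log2 fold change was 0.31 for cytosolic members, -0.29 for mitochondrial members and -0.05 for all tested genes. The ranges of sh-NC and sh-*Etv5* libraries were apart for 18 of 19 cytosolic and 14 of 17 mitochondrial members, against 76.4% of all tested genes. Changes above 0.5 on the log2 scale were called for 8 cytosolic members and 1 mitochondrial member, against 15.9% of all tested genes. Called changes below -0.5 were seen for 0 cytosolic and 5 mitochondrial members, against 15% of all tested genes.

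**Figure D1:**
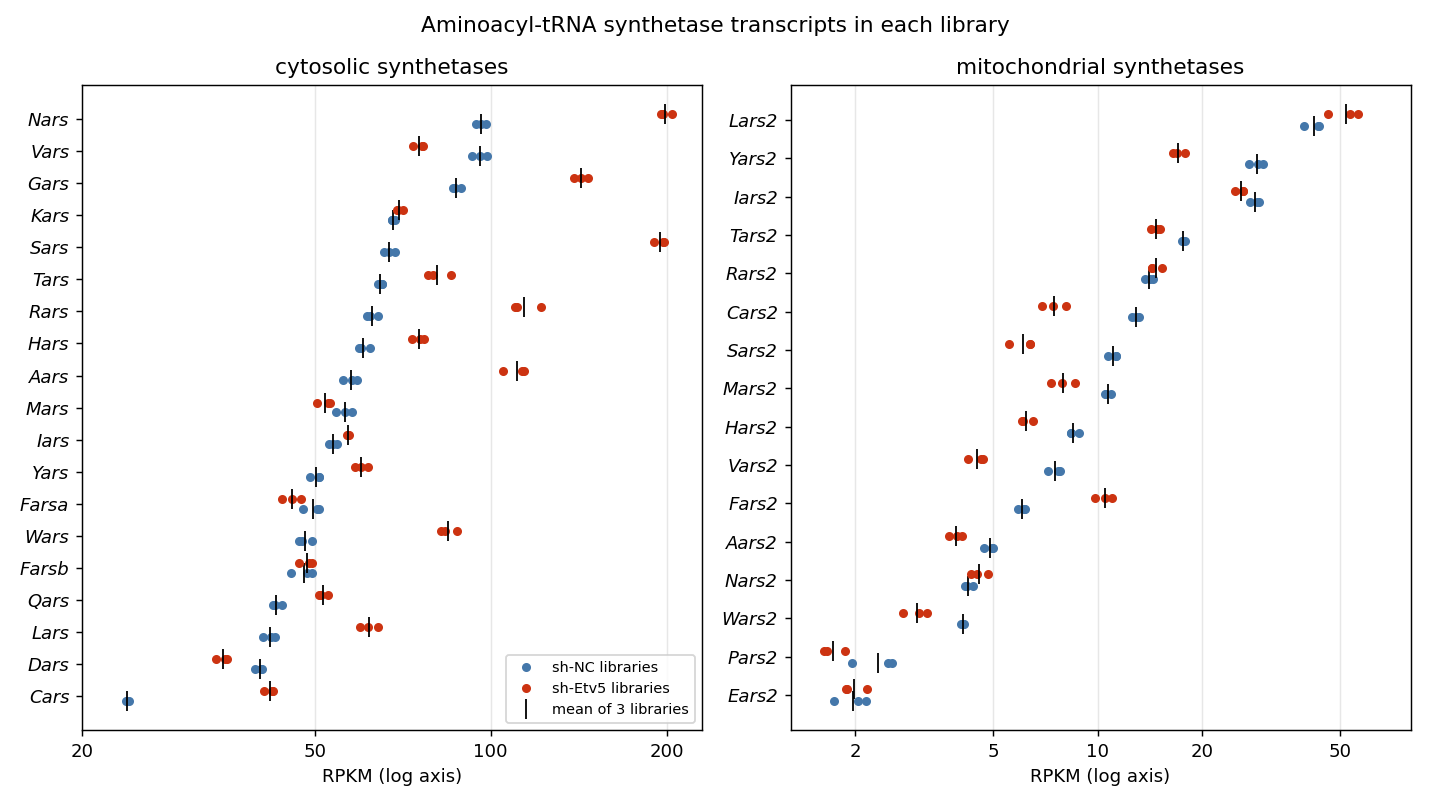
RPKM of synthetase transcripts on a log axis, cytosolic members on the left and mitochondrial members on the right, ordered by the sh-NC mean. Points are single libraries and vertical bars are means of 3 libraries; the sh-*Etv5* points of *Sars* lie between 190 and 198 RPKM against 65.7 to 68.5 in sh-NC libraries, whereas those of *Sars2* lie between 5.54 and 6.38 against 10.7 to 11.3.

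The largest rise was that of *Sars*, which loads serine. *Sars* (chr3:108424865-108445209, minus strand, GRCm38) was at 68.5, 65.7 and 66.9 RPKM in sh-NC and at 197, 190 and 198 RPKM in sh-*Etv5* libraries. Its mean rose 2.91-fold, from 67 ± 1.41 to 195 ± 4.51 RPKM (SD, n = 3), and the log2 change was 1.53 (SE 0.0336, limma adjusted p = 1.85e-11). *Nars*, the asparagine enzyme, was at 96.4, 98.2 and 94.3 RPKM in sh-NC and at 197, 196 and 204 RPKM in sh-*Etv5* libraries. This was a rise from 96.3 ± 1.96 to 199 ± 4.4 RPKM (SD, n = 3), for which the log2 change was 1.04 (SE 0.0329, limma adjusted p = 3.44e-10). *Aars*, the alanine enzyme (chr8:111033144-111057664, plus strand, GRCm38), was at 59.1, 55.9 and 58 RPKM in sh-NC and at 113, 114 and 105 RPKM in sh-*Etv5* libraries. Its log2 change was 0.93 (SE 0.0401, limma adjusted p = 3.88e-09). For each of these genes the lowest sh-*Etv5* library lay far above the highest sh-NC library. Within the exons of *Aars*, 15.12% of bases are shared with other genes, mainly with *Exosc6* on the same strand, a subunit of the RNA exosome whose log2 fold change was -0.90 (55.5 ± 4.79 to 29.1 ± 2.14 RPKM, SD, n = 3, limma adjusted p = 2.48e-07).

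A further 5 cytosolic members rose by more than 0.5 on the log2 scale. *Rars*, for arginine, went from 62.6 ± 1.37 to 114 ± 6.65 RPKM (SD, n = 3; log2 fold change 0.85). *Wars*, the tryptophan enzyme, which is also known as an interferon-induced gene, was at 49.4, 47.6 and 47.1 RPKM in sh-NC and at 87.7, 83.7 and 82.4 RPKM in sh-*Etv5* libraries (log2 fold change 0.80). *Cars*, for cysteine, was the least abundant cytosolic member in sh-NC libraries, at 24.1, 23.8 and 23.9 RPKM, and was at 42.4, 42.2 and 41 RPKM in sh-*Etv5* libraries (log2 fold change 0.78). *Gars*, the glycine enzyme of both sites, rose from 87.4 ± 1.39 to 143 ± 4.23 RPKM (SD, n = 3; log2 fold change 0.70). *Lars*, for leucine, was at 40.8, 42.1 and 42.7 RPKM in sh-NC and at 59.7, 61.6 and 64.3 RPKM in sh-*Etv5* libraries (log2 fold change 0.55). The limma adjusted p of these 5 genes was between 6.96e-09 and 2.33e-07.

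Smaller rises were called for 5 cytosolic members. *Tars*, for threonine, rose by 25% (log2 fold change 0.32) and *Hars*, for histidine, by 24.1% (0.31). *Qars*, for glutamine, rose by 19.8% (0.26) and *Yars*, for tyrosine, by 19.4% (0.25), the latter from 50.3 ± 1.02 to 60.1 ± 1.53 RPKM (SD, n = 3). *Yars* was at 50.9, 49.1 and 50.9 RPKM in sh-NC and at 58.6, 60 and 61.7 RPKM in sh-*Etv5* libraries. The rises of *Tars*, *Hars*, *Qars* and *Yars* kept their call under every alternative fit that was run. *Iars*, for isoleucine, changed from 53.8 ± 0.832 to 57 ± 0.195 RPKM (SD, n = 3), a log2 change of 0.08 (limma adjusted p = 0.0428). Its call was lost under 9 of 16 alternative fits, including each fit that left out 1 library, with limma adjusted p up to 0.59.

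*Kars*, the lysine enzyme of both sites, was at 68 ± 0.412 RPKM in sh-NC and 69.8 ± 0.861 RPKM in sh-*Etv5* libraries (SD, n = 3), a log2 difference of 0.04 with a 95% confidence interval from -0.03 to 0.11. With rescaling to the median ratio *Kars* was called higher (log2 fold change 0.09, limma adjusted p = 0.0282), and with the same sum in each library its log2 difference was -0.02. *Farsb*, the beta subunit of the phenylalanine enzyme, was at 45.6, 49.4 and 48.6 RPKM in sh-NC and at 48.9, 47 and 49.5 RPKM in sh-*Etv5* libraries. Its log2 difference was 0.02 with an interval from -0.07 to 0.11, and it was the cytosolic member whose groups overlapped.

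Cytosolic members that fell did so by less than 0.5 on the log2 scale. *Vars*, for valine (chr17:35000987-35016322, plus strand, GRCm38), was at 95.8, 93 and 98.7 RPKM in sh-NC and at 76.6, 76.2 and 73.6 RPKM in sh-*Etv5* libraries. The log2 change was -0.34 (SE 0.0356, limma adjusted p = 5.6e-06). *Dars*, for aspartate, was at 39.6, 40.5 and 40.7 RPKM in sh-NC and at 33.9, 35.1 and 35.4 RPKM in sh-*Etv5* libraries, for which the log2 change was -0.21 (SE 0.0367, limma adjusted p = 0.000395). *Farsa*, the alpha subunit of the phenylalanine enzyme, was at 50.4, 47.8 and 50.8 RPKM in sh-NC and at 44, 45.8 and 47.3 RPKM in sh-*Etv5* libraries (log2 fold change -0.12, limma adjusted p = 0.0222). *Mars*, for methionine, changed from 56.3 ± 1.73 to 52.1 ± 1.43 RPKM (SD, n = 3; log2 fold change -0.11, limma adjusted p = 0.0239). For *Farsa* and *Mars* the groups lay close together, and each lost its call under 6 of 16 alternative fits, among them those without sh-NC replicate 1, sh-NC replicate 3 or sh-*Etv5* replicate 1. Over all alternatives the limma adjusted p reached 0.217 for *Farsa* and 0.194 for *Mars*. *Mars* shares 68 exon bases (1.99%) with *Ddit3* on the opposite strand, which encodes the stress factor CHOP and went from 8.48 ± 0.494 to 154 ± 6.24 RPKM (SD, n = 3).

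**Figure D2:**
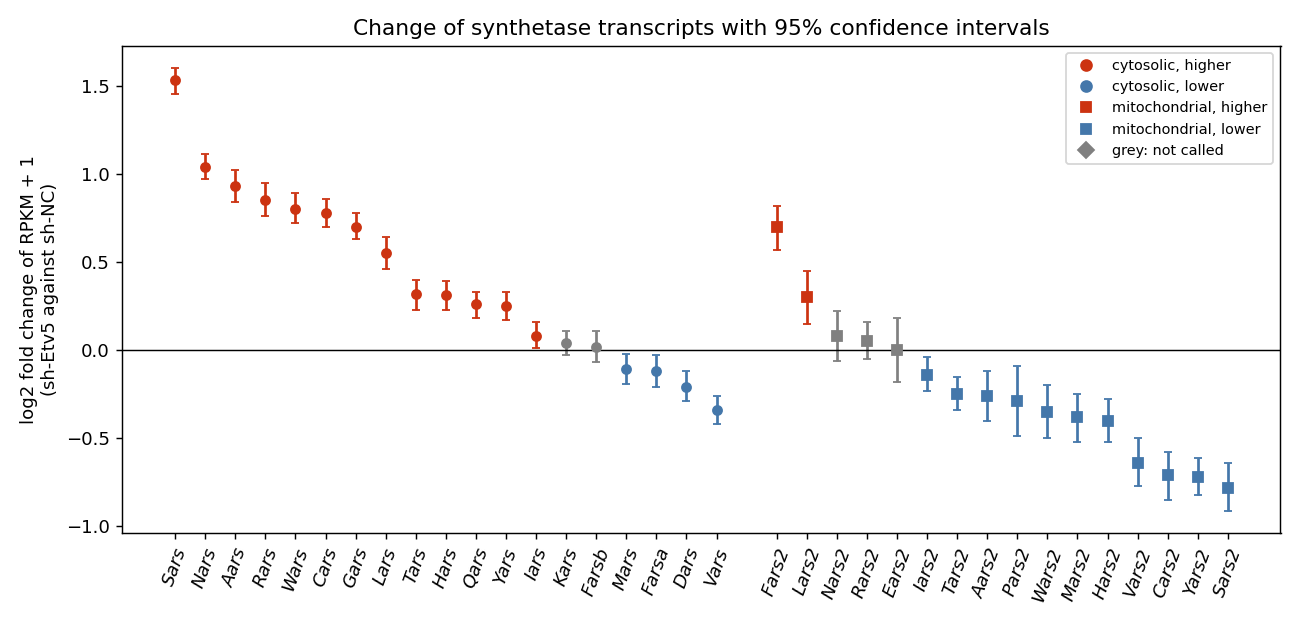
Log2 fold change of RPKM + 1, sh-*Etv5* against sh-NC, for the synthetases shown with 95% confidence intervals from limma. Circles are cytosolic and squares mitochondrial members, and grey marks members that were not called; cytosolic values run from -0.34 to 1.53 and mitochondrial values from -0.78 to 0.70.

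Synthetases fall into structural class I and class II, which have unrelated catalytic folds. Over all tested genes 33.3% rose and 41% fell. Among cytosolic members, 7 of 9 class I genes rose and 2 fell, with a median log2 fold change of 0.26, and 6 of 10 class II genes rose and 2 fell, with a median of 0.31. Among mitochondrial members, 6 of 9 class I genes and 6 of 8 class II genes fell, and 1 of each class rose. Of the 7 members that sit in the multi-synthetase complex (*Dars*, *Iars*, *Kars*, *Lars*, *Mars*, *Qars* and *Rars*), 4 rose and 2 fell, with a median log2 fold change of 0.08. *Eprs*, also an enzyme of the complex, is outside the rule and not in this median, and its log2 fold change was 0.54. Of the 12 cytosolic members outside the complex, 9 rose and 2 fell, with a median of 0.51. The difference between these medians was not tested.

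Because most cytosolic members moved together, their promoters were searched for the core of the C/EBP-ATF response element, TGATGNAA, to which ATF4 is known to bind. The windows run from 250 bases before to 50 bases after the transcription start (RefSeq, GRCm38.p6), and both strands were searched. A window was found for 26 of 36 members, and those without one included *Cars*, *Hars*, *Hars2*, *Lars*, *Nars*, *Pars2*, *Rars*, *Vars* and *Wars*. The core occurred in 5 of 12 cytosolic members (41.7%) and in 0 of 14 mitochondrial members, against 4.51% of all 27025 genes with a window. The 5 cytosolic members were *Aars*, *Gars*, *Iars*, *Tars* and *Yars*, all of which were called higher, *Iars* by 0.08 on the log2 scale. Among all 19 cytosolic members 68.4% were called higher, against 33.3% of all tested genes. *Qars* had a window without the core and was called higher too. A relation of the core to the rises was not tested. The window of *Sars*, the member with the largest rise, did not hold the core. This window (chr3:108445210-108445509) lies outside the annotated span of *Sars* given above, so bases within that span were not searched. The 4 windows shown are those of the members with the core that rose most, with the core or its reverse complement in capitals, 5′ to 3′ on the strand of the gene (*Aars* chr8:111033592-111033891, *Gars* chr6:55037751-55038050 and *Yars* chr4:129189653-129189952 on the plus strand, *Tars* chr15:11399609-11399908 on the minus strand).
Aars: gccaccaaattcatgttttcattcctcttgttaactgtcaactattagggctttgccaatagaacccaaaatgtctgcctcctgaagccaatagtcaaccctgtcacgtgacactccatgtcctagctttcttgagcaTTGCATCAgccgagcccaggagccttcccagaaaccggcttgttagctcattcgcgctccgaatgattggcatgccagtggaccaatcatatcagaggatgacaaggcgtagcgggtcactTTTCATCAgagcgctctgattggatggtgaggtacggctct
Gars: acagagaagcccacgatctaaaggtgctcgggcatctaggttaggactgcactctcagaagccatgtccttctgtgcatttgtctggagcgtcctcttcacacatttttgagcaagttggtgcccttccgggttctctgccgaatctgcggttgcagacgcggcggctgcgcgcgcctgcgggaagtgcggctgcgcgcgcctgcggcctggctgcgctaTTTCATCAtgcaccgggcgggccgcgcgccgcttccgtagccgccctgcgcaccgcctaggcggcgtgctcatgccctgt
Tars: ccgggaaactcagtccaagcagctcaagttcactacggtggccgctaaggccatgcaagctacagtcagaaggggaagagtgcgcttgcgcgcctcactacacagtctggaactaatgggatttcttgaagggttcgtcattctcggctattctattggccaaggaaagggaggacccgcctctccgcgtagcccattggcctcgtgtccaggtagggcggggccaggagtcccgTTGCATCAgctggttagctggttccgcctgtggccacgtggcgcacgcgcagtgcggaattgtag
Yars: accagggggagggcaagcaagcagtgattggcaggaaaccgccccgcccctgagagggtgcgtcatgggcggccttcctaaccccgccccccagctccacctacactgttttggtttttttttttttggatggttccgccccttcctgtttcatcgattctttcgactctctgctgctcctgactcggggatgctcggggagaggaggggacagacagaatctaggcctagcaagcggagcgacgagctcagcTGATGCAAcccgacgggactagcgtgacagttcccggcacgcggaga
The *Aars* window held the core at 2 places, at positions -112 and 9 counted from the start base as 0, and the other windows shown held it once. It began at position -15 in *Tars*, -30 in *Gars* and 3 in *Yars*. The ETS core CCGGAAG, the letters that ETS factors such as ETV5 are known to prefer, was found in 5 of 12 cytosolic members (41.7%) and in 4 of 14 mitochondrial members (28.6%), against 9.93% of all genes with a window. Its cytosolic carriers *Farsa*, *Gars*, *Kars*, *Mars* and *Sars* included members that rose, fell and were not called, and its mitochondrial carriers were *Cars2*, *Mars2*, *Rars2* and *Sars2*. The E-box CACGTG was found in 4 of 12 cytosolic members (33.3%; *Aars*, *Farsb*, *Iars* and *Tars*) and in 1 of 14 mitochondrial members (7.14%; *Ears2*), against 8.09% of all genes. Matches of different motifs did not overlap in these windows. A match describes the sequence and not a bound site.

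Mitochondrial members fell broadly, and the largest fall was again that of a serine enzyme. *Sars2* (chr7:28741992-28753871, plus strand, GRCm38) was at 11.3, 10.7 and 11.3 RPKM in sh-NC and at 6.38, 6.37 and 5.54 RPKM in sh-*Etv5* libraries. The mean thus fell by 45.2%, that is from 11.1 ± 0.338 to 6.1 ± 0.483 RPKM (SD, n = 3), and the log2 change was -0.78 (SE 0.0621, limma adjusted p = 6.03e-07). *Yars2*, for tyrosine (chr16:16302965-16309640, plus strand), was at 27.4, 29.1 and 30 RPKM in sh-NC and at 17, 16.5 and 17.9 RPKM in sh-*Etv5* libraries, for which the log2 change was -0.72 (SE 0.0484, limma adjusted p = 1.45e-07). *Cars2*, for cysteine (chr8:11513977-11550783, minus strand), was at 12.6, 12.9 and 13.2 RPKM in sh-NC and at 7.42, 6.89 and 8.13 RPKM in sh-*Etv5* libraries, for which the log2 change was -0.71 (SE 0.0605, limma adjusted p = 9.67e-07). No sh-*Etv5* library of these genes reached the lowest sh-NC library. *Vars2*, for valine, was at 7.78, 7.69 and 7.19 RPKM in sh-NC and at 4.6, 4.23 and 4.67 RPKM in sh-*Etv5* libraries (log2 fold change -0.64).

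A further 7 mitochondrial members fell by smaller amounts. *Hars2* fell from 8.52 ± 0.261 to 6.23 ± 0.246 RPKM (SD, n = 3; log2 fold change -0.40) and *Mars2* from 10.7 ± 0.189 to 7.94 ± 0.617 RPKM (-0.38). *Wars2* was at 4.13, 4.03 and 4.1 RPKM in sh-NC and at 3.21, 2.75 and 3.06 RPKM in sh-*Etv5* libraries (log2 fold change -0.35). *Pars2*, for proline, was at 1.95, 2.49 and 2.55 RPKM in sh-NC and at 1.62, 1.66 and 1.87 RPKM in sh-*Etv5* libraries (log2 fold change -0.29). Its groups were separated by a narrow gap, and without sh-NC replicate 3 its limma adjusted p was 0.0571. *Aars2* was at 4.96, 4.98 and 4.71 RPKM in sh-NC and at 4.07, 3.94 and 3.73 RPKM in sh-*Etv5* libraries (log2 fold change -0.26). *Tars2* fell by 16.6% (-0.25) and *Iars2* fell by 9.34% (-0.14). The call of *Iars2* was lost without sh-NC replicate 3 and under rescaling by the median ratio or quantile normalization, with limma adjusted p up to 0.0812. A log2 fold change of RPKM + 1 understates changes of transcripts as low as *Pars2* or *Wars2*, of which the mean of the former fell by 26.2% and that of the latter fell by 26.5%.

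*Fars2* and *Lars2* were the mitochondrial members that rose. *Fars2*, for phenylalanine (chr13:36117412-36726280, plus strand, GRCm38), was at 5.88, 6.18 and 6.15 RPKM in sh-NC and at 9.82, 11 and 10.5 RPKM in sh-*Etv5* libraries. Its mean rose by 72.3%, and its log2 change was 0.70 (SE 0.0577, limma adjusted p = 8.17e-07). The exons of *Fars2* overlap those of *Lyrm4* and *Nrn1* on the opposite strand over 10.72% of their bases. *Lyrm4*, which takes part in the building of iron-sulfur clusters, went from 6.48 ± 0.921 to 15.5 ± 1.07 RPKM (SD, n = 3; log2 fold change 1.14, limma adjusted p = 3.14e-07), and the part of shared reads was not tested. *Lars2*, for leucine (chr9:123366927-123462666, plus strand), was the most abundant mitochondrial member, at 43.3, 43.5 and 39.5 RPKM in sh-NC and at 46.1, 53.5 and 56.6 RPKM in sh-*Etv5* libraries. The groups did not overlap, although its SD of 5.36 RPKM in sh-*Etv5* libraries was wide, and its log2 change was 0.30 (SE 0.068, limma adjusted p = 0.00224). *Nars2*, *Rars2* and *Ears2* were not called. *Nars2*, for asparagine, was at 4.2, 4.36 and 4.15 RPKM in sh-NC and at 4.49, 4.84 and 4.32 RPKM in sh-*Etv5* libraries (log2 difference 0.08, 95% confidence interval -0.06 to 0.22). The intervals were -0.05 to 0.16 for *Rars2*, for arginine, and -0.18 to 0.18 for *Ears2*, for glutamate.

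The order of levels also shifted between the compartments. In sh-NC libraries the cytosolic means ran from 23.9 (*Cars*) to 96.3 RPKM (*Nars*) with a median of 56.3, and the mitochondrial means ran from 1.97 (*Ears2*) to 42.1 RPKM (*Lars2*) with a median of 10.7. In sh-*Etv5* libraries the cytosolic means ran from 34.8 (*Dars*) to 199 RPKM (*Nars*) with a median of 69.8, and the mitochondrial means ran from 1.72 (*Pars2*) to 52 RPKM (*Lars2*) with a median of 7.48. *Lars2*, *Iars2* and *Yars2* stood above the lowest cytosolic member in sh-NC libraries, and *Lars2* alone did so in sh-*Etv5* libraries. *Sars* moved from rank 5 to rank 2 of the 36 members, and *Vars* from rank 2 to rank 8, while *Nars* kept rank 1 and *Gars* rank 3. The levels of *Nars* and *Sars* in sh-*Etv5* libraries, 199 ± 4.4 and 195 ± 4.51 RPKM (SD, n = 3), did not differ beyond their spread.

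The summed RPKM of the 19 cytosolic members was 1118, 1108 and 1120 in sh-NC and 1592, 1585 and 1626 in sh-*Etv5* libraries. For the 17 mitochondrial members it was 223.3, 226.9 and 224.3 in sh-NC and 187.8, 194 and 200.4 in sh-*Etv5* libraries. Each sum separated the groups without overlap. The ratio of the cytosolic to the mitochondrial sum within a library, which does not depend on how the library was scaled, was 4.96 ± 0.0699 in sh-NC and 8.25 ± 0.194 in sh-*Etv5* libraries (SD, n = 3).

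The same ratio was formed for each of the 15 amino acids that have a separate cytosolic and mitochondrial gene, as log2 of (RPKM + 1) over (RPKM + 1) in each library. For 14 pairs all sh-*Etv5* libraries lay above all sh-NC libraries and for 1 pair they lay below, with a median change of 0.71. In 8 pairs the cytosolic gene rose and the mitochondrial gene fell, in 3 pairs, among them methionine and valine, both fell, and for leucine both rose. These counts include isoleucine among the 8, although the calls of *Iars* and *Iars2* were lost under some alternative fits, as was that of *Mars* for methionine. The exact two-sided permutation test gave p = 0.1 for each of the 15 pairs, which is the smallest that 3 against 3 libraries allow, and 0.1 after Benjamini-Hochberg adjustment over the pairs, so none passed 0.05. Serine showed the widest shift, with a log2 ratio of *Sars* to *Sars2* of 2.49, 2.51 and 2.46 in sh-NC and 4.74, 4.69 and 4.93 in sh-*Etv5* libraries. The log2 ratio of *Cars* to *Cars2* went from 0.84 ± 0.0335 to 2.34 ± 0.126 (SD, n = 3). Alanine changed by 1.19 and tryptophan by 1.15. For tyrosine the change was 0.97, with both *Yars* and *Yars2* called, and for asparagine it was 0.96, with *Nars* called and *Nars2* not. The smallest positive changes were those of leucine (0.26) and isoleucine (0.22). Leucine was the amino acid with about equal levels in sh-NC libraries, at a log2 ratio of -0.01 ± 0.104 (SD, n = 3).

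Phenylalanine was the exception. The cytosolic enzyme is built from the subunits of *Farsa* and *Farsb*, and for this pair the mean of their log2(RPKM + 1) values was set against that of *Fars2*. The resulting log2 ratio was 2.81 ± 0.0231 in sh-NC and 2.07 ± 0.0818 in sh-*Etv5* libraries (SD, n = 3), a change of -0.75. Here *Fars2* rose, *Farsa* fell and *Farsb* was not called. Glutamate and proline have no cytosolic member in the rule. *Eprs*, which serves both in the cytosol, rose from 75.7 ± 0.674 to 110 ± 3.05 RPKM (SD, n = 3; log2 fold change 0.54, limma adjusted p = 7.91e-08), beside a log2 difference of 0.00 for *Ears2* and of -0.29 for *Pars2*.

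**Figure D3:**
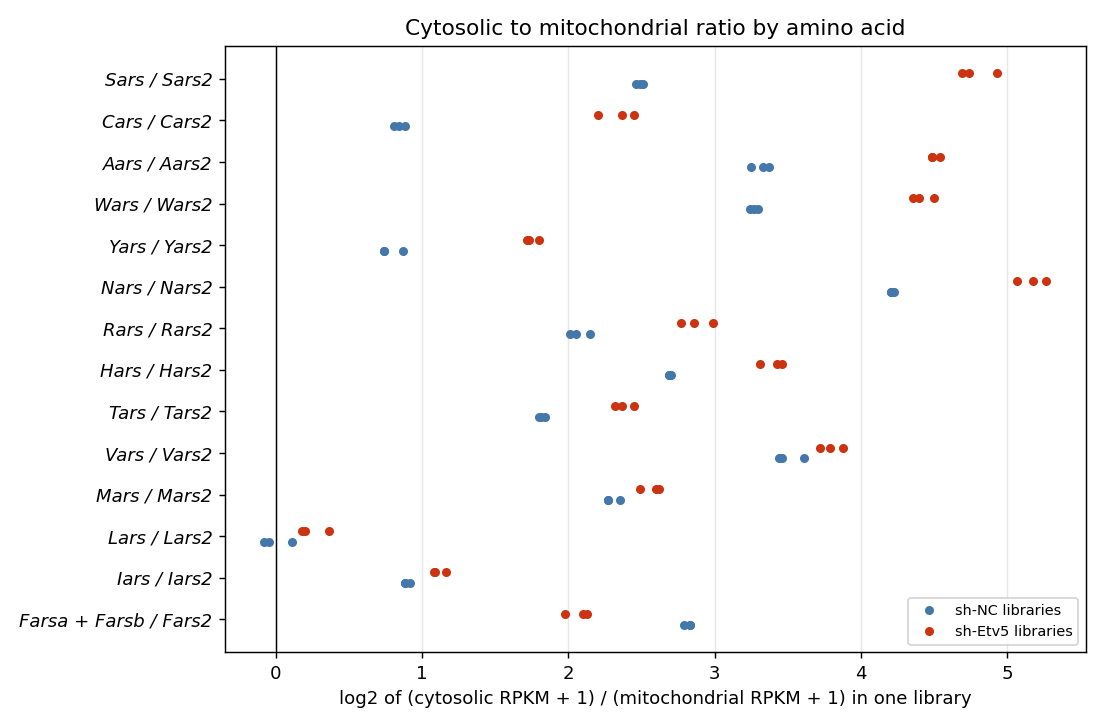
Log2 ratio of the cytosolic to the mitochondrial synthetase transcript of the same amino acid, each point 1 library, blue for sh-NC and red for sh-*Etv5*. The red points lie to the right of the blue points in the pairs shown, apart from the phenylalanine pair at the bottom, where they lie to the left.

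Genes that work beside the synthetases changed in both directions, as did all tested genes, of which 33.3% rose and 41% fell. Of 5 further synthetases and complex scaffolds, 3 rose and 2 fell. Beside *Eprs*, the scaffold genes *Aimp1* (log2 fold change 0.39) and *Eef1e1* (0.22) rose, whereas the scaffold gene *Aimp2* (-0.30) and *Tarsl2* (-0.45), a second threonine enzyme, fell. Of 4 genes that correct or modify charged mitochondrial tRNAs, 0 rose and 2 fell. *Gatb* (-0.39) and *Qrsl1* (-0.36), subunits of the amidotransferase that makes mitochondrial glutaminyl-tRNA, were the ones that fell, while the third subunit *Gatc* (0.03) and *Mtfmt* (-0.09), which formylates the initiator methionyl-tRNA, were not called. With the same sum in each library, *Mtfmt* was called lower (-0.15, limma adjusted p = 0.0159). The limma adjusted p of the called genes in these lists was between 7.91e-08 and 0.00455.

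Of 6 genes for proofreading and selenocysteine charging, 1 rose and 2 fell. *Aarsd1*, which removes serine wrongly loaded onto the alanine tRNA, had a log2 fold change of -0.56 and *Dtd1*, which clears D-amino acids from tRNA, of -0.19. *Sepsecs*, which completes selenocysteine on its tRNA, changed by 0.28 (limma adjusted p = 0.0355) and lost its call without sh-NC replicate 2 or any 1 of the sh-*Etv5* libraries (limma adjusted p up to 0.147 over all alternatives). *Dtd1* lost its call without sh-NC replicate 1, sh-*Etv5* replicate 2 or sh-*Etv5* replicate 3 (limma adjusted p up to 0.0915). Without sh-*Etv5* replicate 2, *Dtd2* was called higher (log2 fold change 0.29). Of 5 cytosolic elongation factors, *Eef1b2* rose (0.13) and *Eef1d* fell (-0.48), while *Eef1a1*, *Eef1g* and *Eef2* were not called. Without sh-*Etv5* replicate 3, *Eef1a1* (-0.08) and *Eef1g* (-0.07) were called lower. *Eef1a1* was also called lower with quantile normalization (-1.05), with the same sum in each library (-0.13) and with the same sum outside the top 10 genes (-0.06), and *Eef1g* with quantile normalization (-0.08) and the same sum (-0.10). In the main fit *Eef1a1* changed by -0.06 (limma adjusted p = 0.118), from 3819 ± 46.9 to 3654 ± 105 RPKM (SD, n = 3). Its RPKM means thus differed far less than the quantile value. The call of *Eef1b2* was lost with the same sum (0.07, limma adjusted p = 0.0585). Of 4 mitochondrial translation factors, the elongation factor *Tsfm* rose (0.13), and the elongation factors *Gfm1* (-0.25) and *Tufm* (-0.19) fell. *Gfm2* (-0.10), which acts in ribosome recycling, was not called. The call of *Tsfm* was lost without sh-NC replicate 3 or sh-*Etv5* replicate 3 (log2 fold change 0.10 in each) and with the same sum (0.07). *Gfm2* was called lower without the filter (limma adjusted p = 0.0298) and with the same sum (-0.16). These values can be read beside the median of -0.05 over all tested genes, and the counts beside their shares of 33.3% higher and 41% lower.

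**Figure D4:**
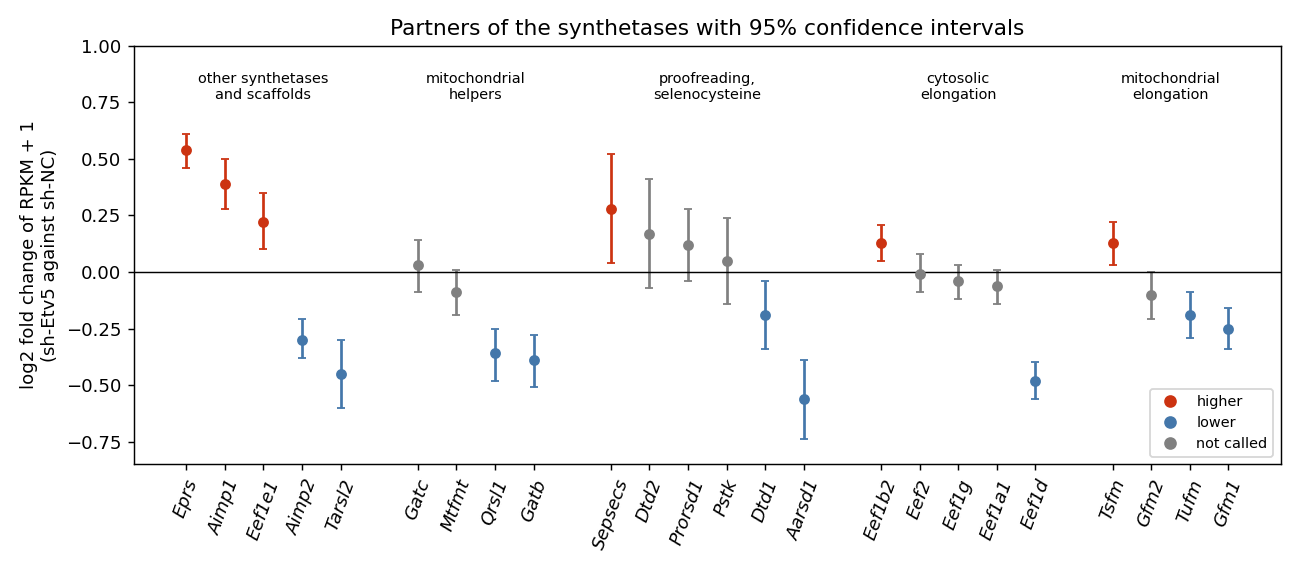
Log2 fold change with 95% confidence interval (limma) for 24 partner genes in 5 groups, sh-*Etv5* against sh-NC. Red, blue and grey mark higher, lower and not called genes; the values lie between -0.56 (*Aarsd1*) and 0.54 (*Eprs*).

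Genes of the amino acid response were taken as a further list, since this pathway is known to control synthetase genes. The list is not particular to amino acids, since it holds all kinases of eIF2 and genes such as *Ddit3* that other stresses, among them ER stress, also raise. The paper names ER stress among the pathways enriched in genes raised by sh-*Etv5*. Which stress the changes below belong to was not tested. Of its 20 genes 13 rose, 5 fell and 2 were not called, against 33.3% higher and 41% lower over all tested genes. The median log2 fold change of the 20 genes was 0.88. The 3 largest changes were those of *Ddit3* (4.04), of the pseudokinase gene *Trib3*, which went from 3 ± 0.243 to 40.1 ± 1.26 RPKM (SD, n = 3; 3.36), and of *Chac1*, which degrades glutathione and went from 2.51 ± 0.405 to 24.6 ± 0.839 RPKM (2.87). *Atf4* itself, named here after its values were seen, went from 139 ± 1.09 to 262 ± 7.55 RPKM (SD, n = 3; log2 fold change 0.91). The genes that fell, also named after their values were seen, were *Psat1* and the 4 kinases of the initiation factor eIF2, *Eif2ak1*, *Eif2ak2*, *Eif2ak3* and *Eif2ak4*. The log2 fold changes of the kinases were between -0.32 and -0.16, and that of *Psat1* was -0.14. Of the interferon-induced genes set beside *Wars*, 5 of 6 could be tested. Of these 5, 3 rose, 1 fell and 1 was not called, against the same shares over all tested genes. *Isg15*, a ubiquitin-like protein, rose from 33.4 ± 1.74 to 72.7 ± 6.2 RPKM (SD, n = 3; log2 fold change 1.10). *Ifit1* (0.80) and *Cxcl10* (0.67) rose as well, and *Irf1* was not called. *Gbp2* stayed below 1 RPKM and was not tested. The limma adjusted p of the called genes named from both lists was between 1.29e-13 and 0.0284, and the relation of these genes to the synthetases was not tested.

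Some members share exon bases with a neighbour, and whether the counting used strand is not given in the sources used here, so their values hold some uncertainty. The widest shared stretch was in *Iars2*, where 24.18% of exon bases lie opposite *Rab3gap2* or a second transcript, and *Rab3gap2* was at 26.8 ± 0.451 RPKM in sh-NC and 27.4 ± 0.91 RPKM in sh-*Etv5* libraries (SD, n = 3). In *Cars2*, 5.83% of exon bases lie opposite *Naxd*, which was at 13.4 ± 0.73 and 14 ± 0.966 RPKM. *Hars* and *Hars2* share 195 exon bases on opposite strands, and this was the one cytosolic and mitochondrial pair with shared sequences of 50 bases. In *Vars2*, 8.52% of exon bases lie opposite another annotated transcript, which was not analysed here. Of the 50-base sequences of *Iars*, 7.15% also occur in *Gm4849*.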

How the data were processed

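PolyA RNA of 3 sh-NC and 3 sh-*Etv5* libraries of Raw264.7 cells was sequenced, and groups were taken from the sample titles. The authors deposited RPKM values for 24786 gene symbols per library, with column names that point to coverage tracks; per the labels the build was mm10, and the methods name the TruSeq RNA kit v2 and limma. The aligner, the annotation, the counting tool and the read totals are not given in the sources used here. RPKM already holds the scaling by length and mapped reads, so a few abundant genes that change can shift all others, and no counting interval was computed.

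Genes with at least 1 RPKM in at least 3 of 6 libraries (10738) were compared on log2(RPKM + 1) by the limma package (version 3.58.1, R 4.3.3; eBayes fitted with trend, two-sided, no covariate), and Benjamini-Hochberg adjusted p-values under 0.05 over all these genes were called. The step was tested on simulated data, in which both groups had the sh-NC spread and few genes were changed. Since these data differ in both respects, that test does not bear on the calls given here. Ratios within a library were compared by an exact permutation test in SciPy 1.17.1, with Python 3.11.15, NumPy 2.4.6, pandas 2.3.3 and matplotlib 3.10.9. Coordinates come from GENCODE M21 on GRCm38. One member and 1 companion gene enter the counts but are not reported here by name; values of each library were given for the 3 largest called rises and falls per compartment and their partner genes, and for some others chosen after their values were seen. Companion genes came from lists written from general knowledge, with the 3 largest changes named for the amino acid response and interferon lists. The members and lists were chosen with earlier results of these data known. The alternatives changed the pseudocount (0.1 or 0.01) or the filter (none, or a mean of 5 RPKM or more), or used rescaling to the same sum, to the sum outside the top 10 genes or to the median ratio, quantile normalization, no trend, a replicate block, 1 library fewer, or other thresholds. The planned comparison of protein sequences was not run.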

Additional observations from a re-analysis of the deposited data

How the results depend on the processing

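Of the 36 synthetases, 27 kept their direction and their side of the threshold under each alternative fit that held them (14 higher, 12 lower and 1 not called). These were 16 fits, or 15 for *Aars2*, *Nars2* and *Wars2*, which a mean RPKM of at least 5 leaves out. With the median ratio *Kars* was called higher as well, so that 14 cytosolic members rose. The number of cytosolic members that fell moved from 4 to 2 (*Dars* and *Vars*) without the trend, with the median ratio, with quantile normalization and at an adjusted p under 0.01, and lay between 2 and 4 when 1 library was left out. Requiring an absolute log2 fold change above 0.5 left 8 cytosolic rises, 0 cytosolic falls, 1 mitochondrial rise, 5 mitochondrial falls, and 1711 rises and 1611 falls over all tested genes. The cytosolic median of 0.31 became 0.36 with the median ratio and 0.25 with the same sum, and lay between 0.28 and 0.33 when 1 library was left out. The mitochondrial median of -0.29 became -0.43 and -0.41 with pseudocounts of 0.01 and 0.1, -0.39 with a mean RPKM of at least 5 (fewer genes), -0.39 with quantile normalization, -0.25 with the median ratio and -0.33 with the same sum, and lay between -0.34 and -0.25 when 1 library was left out. Genes that changed sign were not called: *Kars* -0.02, *Farsb* -0.04, *Rars2* -0.0042, *Ears2* -0.04, *Gatc* -0.03 and *Pstk* -0.0025 with the same sum, *Eef1g* 0.01 and *Eef2* 0.05 with the median ratio, and *Ears2* -0.11 with quantile normalization. When 1 library was left out, *Ears2* ranged from -0.05 to 0.04, *Farsb* from -0.02 to 0.04, *Eef2* from -0.04 to 0.03 and *Pstk* from -0.05 to 0.12. The causes were not tested. Deviations from the group mean correlated at 0.0739, -0.071 and -0.0352 between libraries of the same number. Whether such libraries shared a preparation is not given in the sources used here. With the replicate block 12 cytosolic members rose, *Iars* being the one lost, and 7900 genes were called, 7813 of them among the 7974 called without it. Read depth is unknown, so it is not known how far it limits the members at the lowest levels.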
